A study of Mus musculus with 24 samples.

Results

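Gene expression in FosKO and LysM-Cre control macrophages was compared after 0.5 h of lipopolysaccharide (LPS), the bacterial cell wall component that is sensed by TLR4. The comparison used the 3 libraries labelled FosKO and the 3 labelled LysM at that time, 6 of the 24 libraries of the series, and it covered the 13901 of 24273 genes that passed a filter on low values. The cells were bone marrow-derived macrophages (BMDMs) of strain C57BL/6, grown from bone marrow in L-cell conditioned medium for a week, kept overnight in medium with little serum, and given LPS at 100 ng/ml. All cells carried LysM-Cre, a Cre recombinase gene placed in the lysozyme gene Lyz2 so that it is made in myeloid cells, and in the FosKO cells both Fos alleles were floxed so that Cre could delete Fos. The controls are LysM-Cre alone by the series text, but the study's text describes them with 1 of their Fos alleles floxed too. The study's methods call the replicate libraries biological. Cre copy number and the animal behind each library were not given in the sources used here, so the p-values measure the spread between these libraries.

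FOS is an AP-1 protein. It pairs with JUN proteins, and the pair binds AP-1 sites in DNA and raises or lowers transcription there. Fos is an immediate early gene, transcribed within minutes of a stimulus through the kinase ERK and the factors SRF and TCF, and TLR4 activates ERK in macrophages through the kinase TPL-2, encoded by Map3k8. TLR4 also induces interferon-beta, which acts on the same and neighbouring cells through JAK-STAT signalling and switches on interferon-stimulated genes.

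The deposited values were log2 levels, already normalised by the authors, so a difference of 1 is a 2-fold change. Read depth per library was not given by the table and its effect on precision is unknown. Replicates of 1 genotype correlated at 0.9951 to 0.998 across tested genes. The 18S rRNA gene Rn18s-rs5 was at 16.76 in LysM-Cre replicate 3 and at 16.65 in FosKO replicate 1, and at 18.65 to 19.09 in the other 4 libraries, so each genotype had 1 library of low 18S content and values within each 18S class are given beside the main results. FosKO replicate 3 stood apart for interferon genes, and the lists of interferon genes and some other results are also given without it. Most single genes are given with it only. The 9 macrophage markers other than Lyz2 summed to 160000 to 164000 on the linear scale in LysM-Cre and to 160000 to 176000 in FosKO, all 8 lymphocyte markers were below the filter, and the fibroblast markers summed to 48.3 to 57.1 and 46.2 to 55.6. Markers of some other cell types did differ, and their values are given with the last results.

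Fos itself, the targeted gene, was at 13.43, 13.57 and 13.56 in LysM-Cre and at 12.81, 12.64 and 12.79 in FosKO. All 3 FosKO libraries were below all 3 controls, but Fos was not lost from the table. The log2 difference was -0.77 (SE 0.09), with an adjusted p of 5.93e-07 (limma, Benjamini-Hochberg adjustment over the 13901 tested genes, as for every adjusted p here). It was -0.79 among the high 18S libraries and -0.75 between the 2 low ones. At the other times the libraries labelled FosKO had more Fos signal than the controls, with a difference of 1.49 at 0 h, of 1.64 after 1 h and of 3.29 after 2 h. The table has 1 value for the whole gene, so RNA from a deleted allele and RNA from an intact one cannot be told apart, and loss of the deleted part could not be checked. In the libraries labelled LysM, Fos rose by 2.41 from 0 h to 0.5 h (adjusted p = 1.61e-14), against 0.15 in those labelled FosKO (adjusted p = 0.396).

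Lyz2, which encodes lysozyme and holds the Cre insertion, had the largest rise. It was at 11.15, 11.57 and 11.27 in LysM-Cre and at 16.20, 16.18 and 16.28 in FosKO. The groups were far apart, by 4.89 (SE 0.09, adjusted p = 1.17e-19), and also by 5.17 at 0 h, before LPS. The neighbouring lysozyme gene Lyz1 went the other way, by -0.57 (SE 0.17, adjusted p = 0.0106), a call lost with high 18S libraries only (adjusted p = 0.0795). Whether the 2 genotypes carried the same number of LysM-Cre copies was not tested.

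Of the tested genes, 5689 were called at an adjusted p under 0.05, which is 40.9%, and 2953 (21.2%) were higher and 2736 (19.7%) lower in FosKO. Most calls were small. Their median absolute difference was 0.285, and 82.8% of them were below 1.5-fold. At least a 2-fold change was found for 207 genes that were higher (1.49% of tested genes) and 93 that were lower (0.669%). Without FosKO replicate 3, there were 142 higher and 88 lower genes past 2-fold, of 4617 called. For 299 of the 300 genes the groups did not overlap, which by itself gives the same direction in both 18S classes. The shared direction is therefore no separate check on 18S content. Past 2-fold in both classes were 208 of the genes. The median of the 207 higher genes was 1.36 among high 18S libraries and 1.14 between the low ones, and that of the 93 lower genes was -1.26 and -1.21.

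**Figure D1:**
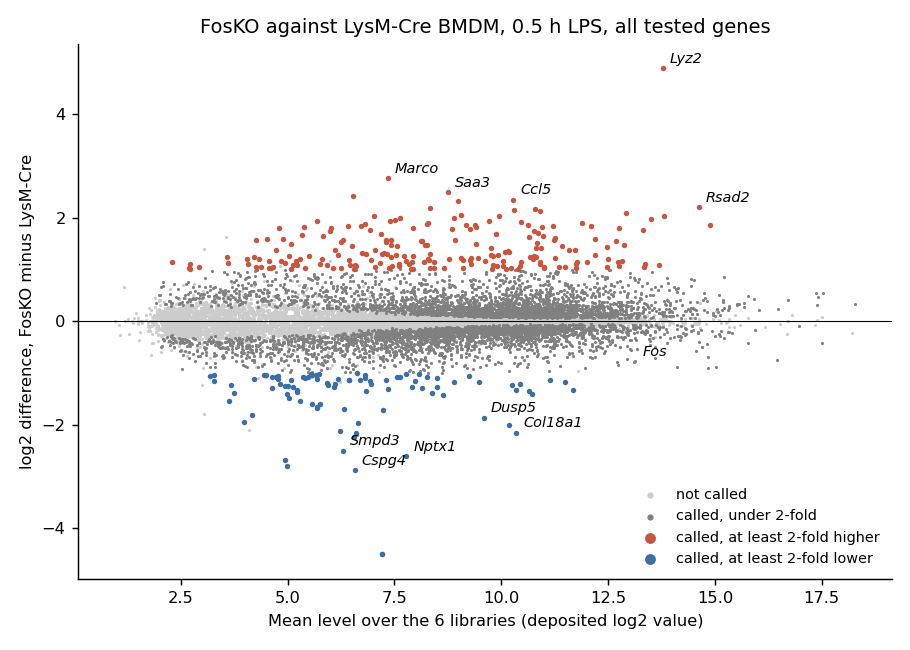
Each point is one of 13901 tested genes, with its mean deposited log2 level over the 6 libraries at 0.5 h on the horizontal axis and the log2 difference of FosKO from LysM-Cre on the vertical axis. Lyz2 lies far above all others at 4.89, and the 207 genes at least 2-fold higher outnumber the 93 at least 2-fold lower.

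The 10 largest rises, led by Lyz2, included scavenger receptor, acute phase, chemokine and antiviral genes. Marco, a scavenger receptor for bacteria, was at 5.90, 5.91 and 6.06 in LysM-Cre and at 8.68, 8.81 and 8.68 in FosKO (difference 2.76, SE 0.13). Saa3, an acute phase serum amyloid, was at 7.51, 7.58 and 7.43 against 9.79, 9.66 and 10.54 (difference 2.50, SE 0.18). Ccl5, a chemokine for T cells and monocytes, was at 9.11, 9.03 and 9.15 against 11.12, 11.08 and 12.14 (difference 2.35, SE 0.20). In Saa3 and Ccl5, FosKO replicate 3 was the highest library, whereas for Marco it was level with replicate 1. The other genes of this set were the serpin Serpina3g (2.41), the antiviral enzyme gene Rsad2 (2.21), the nonclassical class I gene H2-M2 (2.18), Fgl2 (2.16), Ifit1bl1 (2.15) and Ifi205 (2.13). Adjusted p-values of the 10 genes ran from 1.17e-19 to 1.06e-06, and groups without overlap were a condition for this set.

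**Figure D2:**
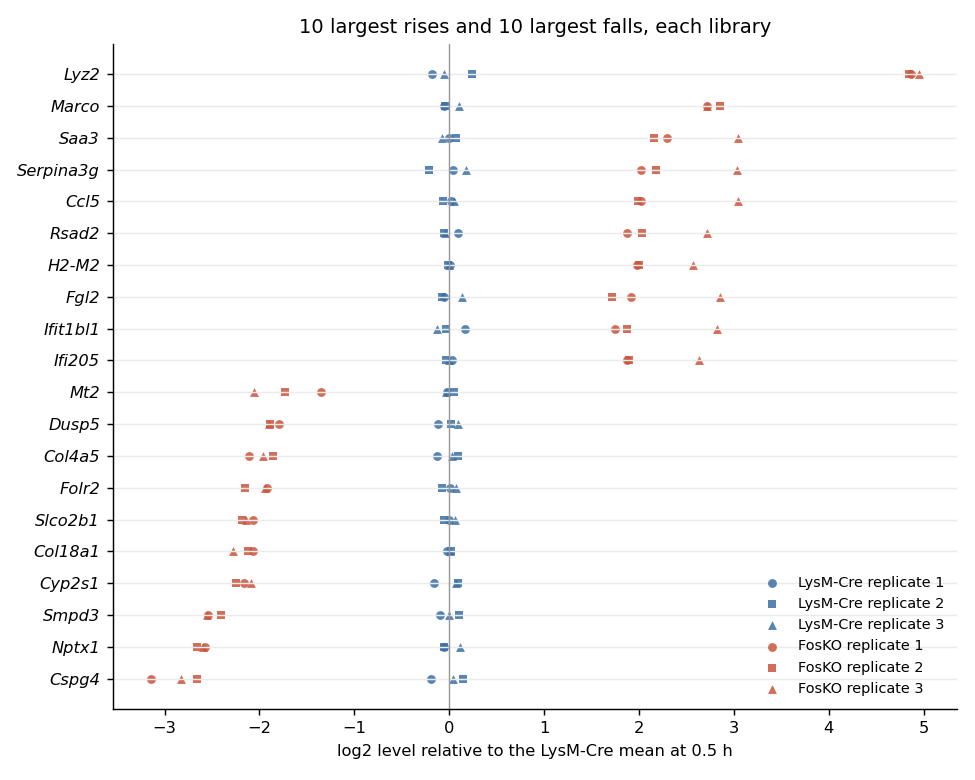
Level of each library at 0.5 h relative to the LysM-Cre mean of that gene (log2), for the called protein-coding genes with the 10 largest rises and the 10 largest falls. LysM-Cre libraries (blue) lie near 0, and FosKO replicate 3 (red triangles) lies to the right of the other FosKO libraries for most rises, such as Ccl5 (a deposited level of 12.14, against a LysM-Cre mean of 9.10), but not for Marco.

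The 10 largest falls, chosen by the same rule, were led by Cspg4. This gene, which encodes a membrane proteoglycan, was at 7.82, 8.15 and 8.05 in LysM-Cre and at 4.86, 5.34 and 5.17 in FosKO (difference -2.88, SE 0.15). Nptx1, a secreted pentraxin, was at 9.02, 9.02 and 9.19 against 6.50, 6.42 and 6.49 (difference -2.61, SE 0.07). Col18a1, a basement membrane collagen, was at 11.41, 11.45 and 11.43 against 9.37, 9.31 and 9.15 (difference -2.15, SE 0.06). For Nptx1 FosKO replicate 3 lay between the other FosKO libraries, and for Col18a1 it was the lowest. The remaining falls were of Smpd3, a sphingomyelinase (-2.50), Cyp2s1, a cytochrome P450 (-2.17), Slco2b1, an organic anion transporter (-2.13), Folr2, a folate receptor of resident macrophages (-2.00), Col4a5, another basement membrane collagen (-1.98), Dusp5, a phosphatase that inactivates ERK (-1.86), and Mt2, a metallothionein (-1.71). Chosen after its values were seen, the pseudogene pair Gm13841 and Gm8210 fell by 4.51, with identical values in every library, so their reads cannot be assigned to one of them.

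The difference between the genotypes was largely there before LPS. Of the 207 higher genes, 205 were also called higher at 0 h, where 19.5% of tested genes were called higher and 15.9% lower, and 130 were at least 2-fold higher there, which is 62.8% of the 0.5 h list and 91.5% of the 0 h list. Their median difference was 1.11 at 0 h and 1.27 at 0.5 h, and 190 of the 207 had a larger difference at 0.5 h. Of the 93 lower genes, 86 were called lower at 0 h and 55 were also at least 2-fold lower, 59.1% of the one list and 87.3% of the other, with medians of -1.08 and -1.24. At 1 h the medians of the 207 and the 93 genes were 1.08 and -1.10, and at 2 h they were 1.05 and -0.85. The gene sets were chosen by their size at 0.5 h, so a smaller median at other times is in part set by that choice.

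The genes of the interferon response were higher in FosKO almost without exception. Of 53 tested interferon-stimulated genes, 52 were called higher and 0 lower, with a median difference of 0.89 against -0.0032 over all tested genes, and 22 were at least 2-fold higher. Of 17 interferon-inducible GTPases, which attack the vacuoles of intracellular microbes, 16 were called higher and 0 lower, with a median of 1.42. All 22 genes of MHC class I presentation were called higher, with a median of 0.74. Those shares stand against the 21.2% of all tested genes called higher. Without FosKO replicate 3, the counts were 52, 16 and 21, and the medians were 0.78, 1.20 and 0.60. Within the high 18S libraries the medians were 0.94, 1.52 and 0.80, and between the low ones 0.81, 1.21 and 0.59.

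FosKO replicate 3 was the highest FosKO library for 53 of the 53 interferon-stimulated genes, 16 of the 17 GTPases and 22 of the 22 class I genes. The list level of interferon-stimulated genes, the median over members relative to the control mean, was 0.80, 0.77 and 1.12 in the FosKO libraries and 0.07, -0.06 and 0.00 in LysM-Cre. At 0 h the FosKO libraries were at 0.55, 0.79 and 0.95, again with replicate 3 the highest. So no control library reached a FosKO library at either time for this list.

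**Figure D3:**
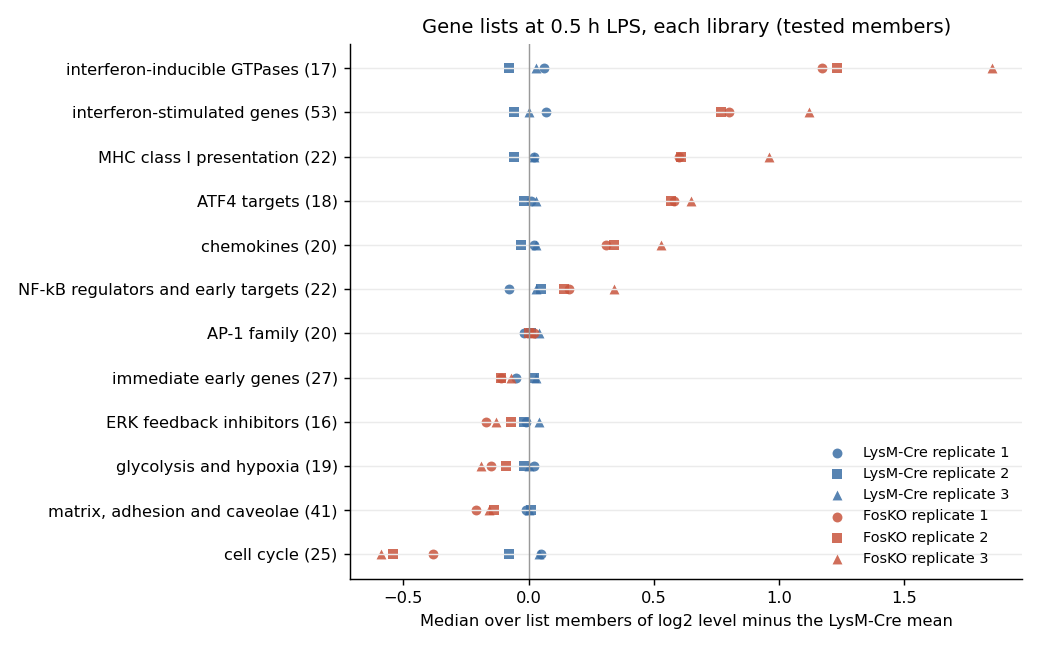
Median over the tested members of 12 gene lists of the log2 level relative to the LysM-Cre mean, for each library at 0.5 h, with the number of tested members in parentheses. The 3 FosKO libraries (red) lie right of all controls (blue) for the interferon, class I and ATF4 lists, for example 0.77 to 1.12 for interferon-stimulated genes, and left of them for cell cycle genes.

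Rsad2, which encodes viperin, an enzyme that makes a chain-terminating nucleotide, was at 13.61, 13.47 and 13.47 in LysM-Cre and at 15.39, 15.55 and 16.23 in FosKO (difference 2.21, SE 0.19, adjusted p = 1.83e-08). Cmpk2, its neighbour and a nucleotide kinase, was at 12.60, 12.46 and 12.45 against 14.17, 14.26 and 15.03 (difference 1.98, SE 0.19). Mx1, a dynamin-like GTPase that blocks viruses, was at 11.10, 10.82 and 10.93 against 12.62, 12.59 and 13.32 (difference 1.89, SE 0.16). All 3 were higher in each FosKO library than in any control. Ifi44 (1.94), Ifit2 (1.86), Ifit3 (1.75), the DNA and RNA sensor Zbp1 (1.66), the ubiquitin-like modifier Isg15 (1.58), Ifit1 (1.46) and the amplifying factor Irf7 (1.44) were also among the called members. Stat2, which carries the interferon signal, differed by 1.21, and Irf9, its partner, by 0.26. Ifi27l2a was the one member not called, at -0.08.

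Among the GTPases, Gbp6 was highest in difference at 2.05, followed by Iigp1 (1.99), Tgtp2 (1.92) and Gbp4 (1.88), and Gbp10 was not called at 0.33. In the class I list, H2-M2 was at 7.24, 7.22 and 7.23 in LysM-Cre and at 9.22, 9.23 and 9.80 in FosKO. Tap1, the peptide transporter, differed by 1.03 (SE 0.10), H2-T22 by 0.95 (SE 0.08) and the immunoproteasome subunit gene Psmb10 by 0.91 (SE 0.08), whereas the main class I genes H2-K1 and H2-D1 differed by 0.51 and 0.36. Many genes of these families are near-identical copies, so the split of reads between single members is uncertain. In class II presentation, 3 of 10 members were called higher and 1 lower, near or below the 21.2% and 19.7% of all tested genes, with 6 higher under a replicate block. The median was 0.24, or 0.09 without FosKO replicate 3, the highest FosKO library for 10 of the 10.

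Promoter sequence was read for the interferon-stimulated genes, because the interferon-activated factor binds a known element, the ISRE. Windows of 300 bases, mostly upstream of the start, were taken from RefSeq (GRCm38.p6), with 12169 windows for 9539 of the tested genes. The ISRE core letters GAAANNGAA, on either strand, were in 21 of 51 windows of the interferon-stimulated genes (41.2%), in 9 of 11 of the GTPases (81.8%), in 31.5% of windows of the genes at least 2-fold higher, in 10.5% of those of the genes at least 2-fold lower, and in 7.49% of windows of all tested genes. The letters are not shown to be a bound site. The stretches around the matches are printed for the 4 list members with the largest differences among those with a match before the start, with the core, or overlapping cores, in capitals. They lie at chr12:26456538-26456596 on the minus strand (Rsad2), chr19:34583402-34583460 on the plus strand (Ifit3), chr4:156200851-156200909 on the minus strand (Isg15) and chr19:34640780-34640838 on the plus strand (Ifit1).
Rsad2: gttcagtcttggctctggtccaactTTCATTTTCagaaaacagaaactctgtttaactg
Ifit3: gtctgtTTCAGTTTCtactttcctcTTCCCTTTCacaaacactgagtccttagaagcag
Isg15: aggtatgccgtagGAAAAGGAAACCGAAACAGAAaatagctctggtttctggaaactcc
Ifit1: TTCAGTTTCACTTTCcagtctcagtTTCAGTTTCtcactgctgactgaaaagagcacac

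Ifnb1, which encodes interferon-beta, was at 6.31, 6.41 and 6.30 in LysM-Cre and at 7.75, 7.89 and 8.45 in FosKO. Each FosKO library was above each control, with a difference of 1.69 (SE 0.12, adjusted p = 1.99e-09). At 0 h the difference was 0.10, at 1 h 3.18 and at 2 h 3.00. Ifnb1 changed by 1.86 from 0 h to 0.5 h in FosKO (adjusted p = 7.03e-10) and by 0.26 in LysM-Cre (adjusted p = 0.277). The interferon-stimulated genes had a median difference of 0.74 at 0 h, with 52 of 53 called higher. Whether Ifnb1 had a part in their level was not tested. The tested interferon-alpha genes Ifna1, Ifna2, Ifna4, Ifna5 and Ifna6 were at 0.08, 0.34, 0.08, 0.04 and 0.00 and were not called. The receptor genes Ifnar1 and Ifnar2 were at -0.02 and -0.03, also not called. Of the 22 genes in the list of interferon genes, sensors and JAK-STAT members, 12 were called higher and 2 lower, beside 21.2% and 19.7% of all tested genes. Without FosKO replicate 3, 7 were called higher, nearer to that share, and with quantile normalisation 4 were called lower. The feedback inhibitor Socs1 rose by 1.08 (SE 0.13) and the kinase gene Ikbke by 0.72 (SE 0.07).

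Il10, the anti-inflammatory cytokine gene, was at 7.70, 7.79 and 7.93 in LysM-Cre and at 7.17, 6.75 and 7.26 in FosKO. The FosKO libraries were all lower, by -0.75 (SE 0.14, adjusted p = 0.000137). The difference was -0.26 at 0 h, -1.36 at 1 h and -1.70 at 2 h. Tlr4, the LPS receptor, was at 11.54, 11.53 and 11.64 against 11.65, 11.58 and 11.63 (difference 0.05, SE 0.05, adjusted p = 0.446), and the groups overlapped. Map3k8 was 0.34 higher (SE 0.06, adjusted p = 6.26e-05).

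The genotype difference at 0.5 h was different from that at 0 h for 16 genes, 0.115% of those tested, 14 with a lower and 2 with a higher value. Before adjustment, 905 genes had a limma p under 0.05. Many of the 13901 tests would pass that level without any true difference. The 14 were Fos (-2.26), Nr4a1 (-1.15), Csf2 (-1.08), Kdm6b (-0.92), Errfi1 (-0.91), Dusp5 (-0.87), Gm16184 (-0.85), Egr3 (-0.72), Tnfaip3 (-0.52), Hspa1a (-0.50), Ifrd1 (-0.39), Pvr (-0.36), Dusp1 (-0.33) and Nfkbia (-0.31), where each value is the difference at 0.5 h minus that at 0 h. The 2 were Ifnb1 (1.59) and Txnip (0.43). The count was 9 to 24 when single libraries were left out, and it was lowest without LysM-Cre replicate 3 at 0.5 h, at 10 without LysM-Cre replicate 2 and highest without LysM-Cre replicate 1 of that time. It was 6 with only the groups compared, 26 with quantile normalisation and 25 with a replicate block within each genotype. Fos, Kdm6b, Errfi1, Dusp5 and Ifnb1 were called under every alternative tried, and each of the other 11 lost its call under some. Nr4a1 and Dusp1 lost it with only the groups compared (adjusted p = 0.0835 and 0.135) and with a replicate block within each time (0.137 and 0.193), and Csf2 with that block (0.0575). Csf2 also lost its call with high 18S libraries only (0.105) and without LysM-Cre replicate 3 at 0.5 h (0.0501). Nfkbia, Hspa1a, Egr3 and Gm16184 lost it under most or many alternatives, with adjusted p-values up to 0.555, 0.501, 0.425 and 0.471.

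All 14 rose with LPS in the control cells, and by the test itself their change was smaller in FosKO. Nr4a1, an orphan nuclear receptor and immediate early gene, was at 8.88, 9.20 and 9.29 in LysM-Cre and at 8.10, 7.73 and 7.72 in FosKO at 0.5 h. The groups were apart by -1.27 (SE 0.12, adjusted p = 5.2e-08), after rises of 3.39 in LysM-Cre and 2.24 in FosKO from 0 h. Csf2, the gene of the growth factor GM-CSF, was at 5.06, 5.21 and 5.25 against 4.24, 3.94 and 4.12 (difference -1.07, SE 0.13). It rose by 1.35 in LysM-Cre and changed by 0.27 in FosKO, where the change did not pass the test (adjusted p = 0.257). Kdm6b, a histone H3K27 demethylase, rose by 2.28 and 1.36, Errfi1, an inhibitor of the EGF receptor, by 2.27 and 1.36, Dusp5 by 2.57 and 1.70, and Egr3, a zinc finger immediate early gene, by 2.77 and 2.05. The NF-kB inhibitors Tnfaip3 and Nfkbia rose by 2.91 and 2.78 in LysM-Cre and by 2.39 and 2.48 in FosKO. The test of the difference between these changes was lost for Nfkbia with median centring (adjusted p = 0.0593) and when most single libraries were left out. Both were higher in FosKO at 0 h, by 0.38 and 0.28, and at 0.5 h their differences were -0.14 (adjusted p = 0.0502) and -0.03 and were not called. Tnfaip3 was called lower with quantile normalisation (-0.26, adjusted p = 0.000307), with each form of replicate block, with the stricter filter and without LysM-Cre replicate 1 or FosKO replicate 3, and Nfkbia with quantile normalisation (-0.14, adjusted p = 0.00156). The 2 LPS changes share the libraries of the genotype comparison, so they are given side by side.

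**Figure D4:**
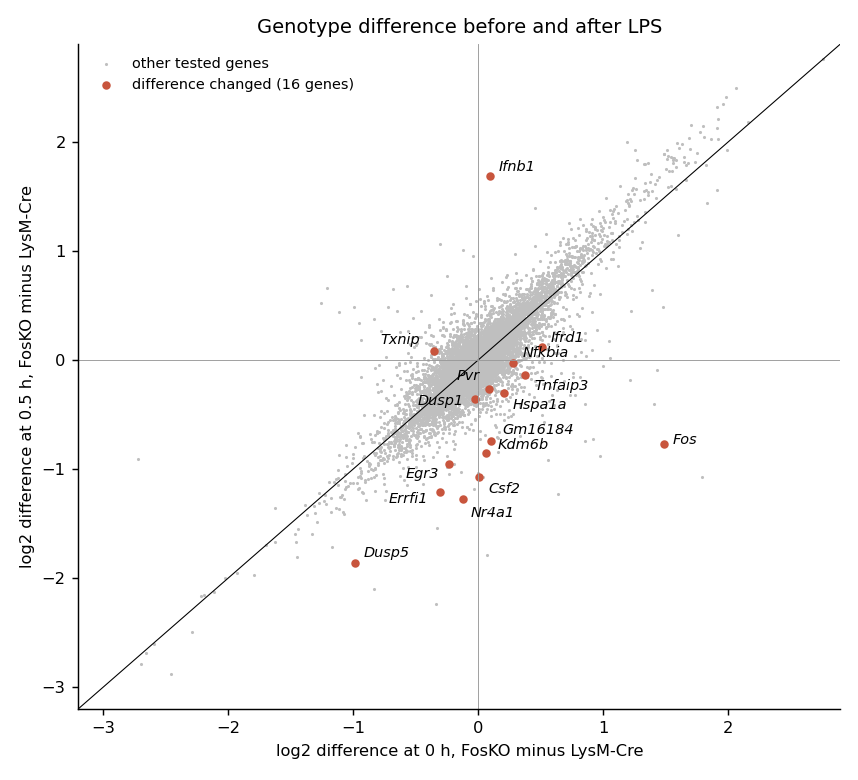
Log2 difference of FosKO from LysM-Cre at 0 h (horizontal) and at 0.5 h (vertical) for the tested genes, with the line of equal difference and the 16 genes whose difference changed in red. Most genes lie near the line, Fos moves from 1.49 to -0.77 and Ifnb1 from 0.10 to 1.69, and 4 genes (Lyz2, Gm13841, Gm8210 and Gm5537) lie outside the frame.

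Of the AP-1 family, 7 of 20 members were called higher and 6 lower, beside 21.2% and 19.7% of all tested genes, with a median of 0.02, or of -0.03 with quantile normalisation. The genes of all FOS proteins were lower. Fosl1 was at 4.83, 4.46 and 5.02 in LysM-Cre and at 3.83, 3.60 and 3.52 in FosKO (difference -1.12, SE 0.14), Fosb at 6.74, 6.57 and 6.80 against 6.13, 5.92 and 5.42 (difference -0.88, SE 0.27), and Fosl2 at 10.72, 10.90 and 10.89 against 10.22, 10.13 and 10.09 (difference -0.69, SE 0.06). In all 3 genes the FosKO libraries were below the controls, but Fosb was not called without FosKO replicate 3, its lowest library (difference -0.67, adjusted p = 0.0884). At 0 h Fosl1 differed by -0.90, Fosl2 by -0.50 and Fosb by -0.25. The JUN partners changed little, with Jun at 0.19 (SE 0.04), Junb at -0.16 (SE 0.06) and Jund at -0.05, not called. The Junb call was lost with median centring (adjusted p = 0.061) and without any one of 4 libraries. Batf2 (1.11), Batf (0.73), Atf4 (0.48), Mafk (0.48), Maf (0.22) and Atf3 (0.19) were higher, and Maff was at -0.40. With quantile normalisation Atf3 was at 0.06 (adjusted p = 0.289) and Jun at 0.09 (adjusted p = 0.0975), and neither was called. Jdp2, Batf3, Atf2, Atf7 and Mafg, at -0.02 to 0.19, were not called. Jdp2 (adjusted p = 0.0587) was called higher with quantile normalisation (0.0399), median centring (0.0448) and a replicate block within each time (0.0474). The gene was also called higher without LysM-Cre replicate 2 (0.0228) or 3 (0.0289).

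**Figure D5:**
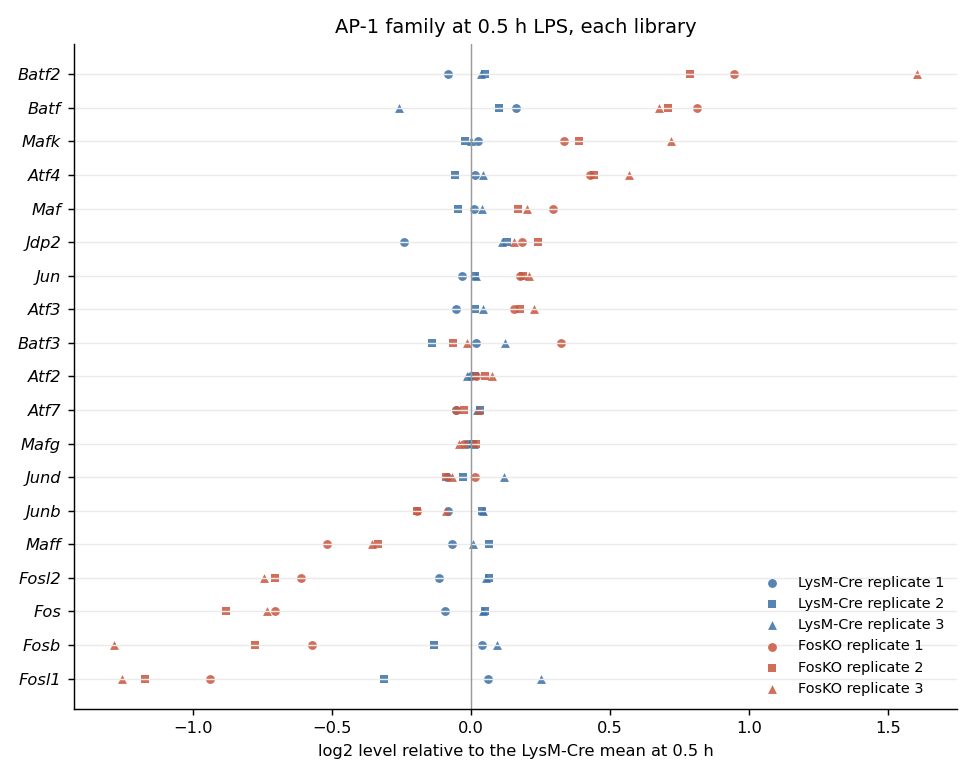
Level of each library at 0.5 h relative to the LysM-Cre mean of that gene (log2) for tested AP-1 family genes, ordered by difference. Fos, Fosb, Fosl1 and Fosl2 lie to the left in every FosKO library, with differences of -0.69 to -1.12, and Batf2 lies farthest to the right at 1.11.

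The AP-1 letters TGANTCA, on either strand, were in 14.3% of promoter windows of the genes at least 2-fold higher (24 of 168 windows, of 23 genes), in 13.2% of those of the genes at least 2-fold lower (10 of 76 windows, of 8 genes) and in 5.33% of windows of all tested genes. They were in 1 of the 14 windows found for the 16 genes whose difference changed, that of Tnfaip3. The share over all RefSeq windows was 7.81%. Windows were found for 142 of the 207 higher and 59 of the 93 lower genes. These letters, too, are not shown to be a bound site. The stretches are shown for the 2 largest rises and 2 largest falls with a match before the start, with the AP-1 letters in capitals. They lie at chr12:26456508-26456564 on the minus strand (Rsad2), chr5:21372632-21372672 on the plus strand (Fgl2), chr7:101845374-101845430 on the minus strand (Folr2) and chr8:94172514-94172570 on the plus strand (Mt2).
Rsad2: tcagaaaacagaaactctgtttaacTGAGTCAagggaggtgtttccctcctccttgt
Fgl2: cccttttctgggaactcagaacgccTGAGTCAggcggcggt
Folr2: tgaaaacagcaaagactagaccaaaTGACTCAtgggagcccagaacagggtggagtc
Mt2: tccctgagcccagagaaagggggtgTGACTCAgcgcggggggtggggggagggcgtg

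Of 27 immediate early genes, 7 were called higher and 12 lower, with a median of -0.08, where the shares over all tested genes were 21.2% and 19.7%. Besides Nr4a1 and Egr3, Arc (-0.63), Phlda1 (-0.56), Myc (-0.55) and Egr2 (-0.48) fell, whereas Rgs1 (0.67) and the survival gene Mcl1 (0.42) rose. Egr1, at -0.07, was not called. The CArG box, the SRF element of CC, 6 A or T bases and GG, was in 7 of 26 windows of this list (26.9%) and in 1.19% of windows of all tested genes. Of the ERK feedback inhibitors, 2 of 16 were called higher and 7 lower. The second higher call was lost under 9 alternatives, among them quantile normalisation, no filter, and the omission of any one of 4 libraries (replicates 1 and 2 of the controls, and 1 and 3 of FosKO). Dusp5 was at 10.40, 10.54 and 10.62 in LysM-Cre and at 8.73, 8.63 and 8.62 in FosKO, and Errfi1 at 10.80, 11.20 and 11.12 against 9.79, 9.90 and 9.78. Both were lower in every FosKO library, by -1.86 (SE 0.07) and -1.21 (SE 0.07). Dusp7 went the other way, at 0.80 (SE 0.05), and Dusp6, a further ERK phosphatase gene, was at -0.01 and not called. Of the genes of the TPL-2, ERK and TCF cascade, 2 of 12 were called higher and 2 lower, no larger shares than the 21.2% and 19.7% over all genes, or 5 lower with quantile normalisation, with Elk3 at -0.30 and the ERK gene Mapk3 at -0.06, not called. Without FosKO replicate 3 or without LysM-Cre replicate 1, 1 gene of this cascade was called higher. The Dusp5 window held 2 CArG matches before the start, at chr19:53529048-53529107 on the plus strand, shown in capitals.
Dusp5: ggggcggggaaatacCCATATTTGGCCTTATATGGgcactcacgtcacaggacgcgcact

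NF-kB regulators and early targets had 14 of 22 members called higher and 2 lower, beside 21.2% and 19.7% over all genes, with a median of 0.23. Without FosKO replicate 3, 8 were called higher and 3 lower, with quantile normalisation 7 were called lower, and replicate 3 was the highest FosKO library for 22 of the 22. Bcl2a1d, a survival gene with close copies, rose by 0.92, Traf1 by 0.50 and Nfkbie by 0.45, and Tnip3 fell by 0.48. Of the cytokines and growth factors, 13 of 26 were higher and 6 lower. Tnfsf10, which encodes TRAIL, rose by 1.89, Csf1 by 1.20, Il27 by 1.12 and Il6 by 0.66, Il1b fell by 0.28, and Tnf was at 0.06 and not called. Among 20 chemokines, 11 were called higher and 2 lower. Cxcl10, a ligand of CXCR3 and an interferon target, was at 11.88, 11.82 and 11.88 in LysM-Cre and at 13.33, 13.37 and 14.27 in FosKO (difference 1.80, SE 0.20). The FosKO libraries were all higher. The chemokine genes with the largest differences were Ccl5 (2.35), Cxcl11 (1.93), Ccl12 (1.85) and Cxcl10. Cxcl11 is annotated as a polymorphic pseudogene, and was at 4.78, 4.84 and 4.53 in LysM-Cre and 6.02, 6.48 and 7.43 in FosKO. The neutrophil chemokine genes Cxcl1 and Cxcl2 fell by 0.69 and 0.20. The Cxcl2 call was the weaker (adjusted p = 0.0175), and 1 chemokine in place of 2 was called lower with high 18S libraries only and without LysM-Cre replicate 2, LysM-Cre replicate 3 or FosKO replicate 2.

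Receptors and effector genes changed in both directions. Of 28 scavenger, lectin and phagocytic receptors, 14 were called higher and 8 lower: after Marco, Clec4n (1.49), Fcgr2b (1.14), Fcgr4 (1.01) and Mertk (1.00) rose, and Cd163 (-1.41), Cd5l (-0.90) and Cd36 (-0.70) fell. The formyl peptide receptor genes Fpr2 and Fpr1 rose by 1.83 and 1.16, while C5ar2 (-0.64) and Cx3cr1 (-0.61) fell. C3, the central complement protein, was at 12.87, 12.70 and 12.84 in LysM-Cre and at 14.75, 14.50 and 15.24 in FosKO (difference 2.03, SE 0.16), and Cfb rose by 1.95. Irg1, also named Acod1, which makes itaconate, was at 11.85, 11.86 and 11.88 against 13.69, 13.77 and 14.41 (difference 2.09, SE 0.16). Nos2, the inducible nitric oxide synthase, was at 6.03, 5.94 and 6.05 against 7.54, 7.74 and 8.81 (difference 2.02, SE 0.29). Every control was below every FosKO library in these 3 genes, and FosKO replicate 3 was the highest in each. Among 23 Toll-like receptors and adaptors, 10 were called higher and 2 lower, or 5 lower with quantile normalisation and 1 with high 18S libraries only, beside 21.2% and 19.7% over all genes, and Tlr3 (1.07) had the largest difference. Of 13 inflammasome genes, 8 were higher and 1 was lower, Nlrp1b, which fell by 1.00, with Casp4 at 0.98 and Nlrc4 at 0.73, and 2 were lower with quantile normalisation or without FosKO replicate 3.

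Matrix, adhesion and caveolar genes had 9 of 41 members called higher and 21 lower, with a median of -0.16. The list counts given here stand beside 21.2% of all tested genes called higher and 19.7% called lower. The 9 of 41 is near the first of these shares. Besides Cspg4 and Col18a1, the caveolar genes Ptrf, now called Cavin1 (-1.22), Cav1 (-0.99) and Cav2 (-0.67) fell, while Thbs1 (1.81), the membrane collagenase gene Mmp14 (1.79) and Itgal (1.30) rose. Cell cycle genes were mostly lower, with 20 of 25 called lower and 2 higher and a median of -0.53. Ccnb2 fell by 0.79, Cdc20 by 0.76, Plk1 by 0.71 and Top2a by 0.70, and the cycle inhibitor gene Cdkn1a rose by 0.38. Without FosKO replicate 3, 17 were called lower and 1 higher, and the list level was -0.38, -0.54 and -0.59 in the FosKO libraries. ATF4 targets, genes of amino acid supply and stress, had 16 of 18 members called higher and 1 lower, with a median of 0.61 in all and of 0.58 without FosKO replicate 3. Ddit3 rose by 1.18, the cystine transporter gene Slc7a11 by 1.14 and Trib3 by 1.01. Glycolysis and hypoxia genes had 3 of 19 members higher and 10 lower, with Pdk1 at -0.50 and Pfkfb3 at 0.91. Of 10 LXR targets, 4 rose and 4 fell, with Scd1 at -1.18 and Nr1h3 at 0.93. Only 2 were called lower with median centring, and without FosKO replicate 3, LysM-Cre replicate 1 or LysM-Cre replicate 3. Of 19 sterol genes 4 were called higher and 4 lower, near the 21.2% and 19.7% over all genes, and 2 and 9 with quantile normalisation. Of 23 macrophage transcription factor genes, 9 were called higher and 8 lower, with a median of 0.09. The median was -0.08 with quantile normalisation and 0.01 without LysM-Cre replicate 1. Nr1h3, Bhlhe41 (0.70) and Id2 (0.40) rose most, and Id3 and Pparg had the largest falls, at -1.13 and -0.45. The count called lower was 4 with high 18S libraries only, and 5 without LysM-Cre replicate 1, LysM-Cre replicate 2 or FosKO replicate 3.

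Markers of other cells moved in part. Csf3r, the G-CSF receptor gene, rose by 1.28, and it made up most of the summed linear level of neutrophil markers, which was 714 to 745 in LysM-Cre and 1430 to 1880 in FosKO. The granule genes Ngp, S100a9 and Ltf were at -0.67, -0.65 and -0.65, of which Ngp lost its call with high 18S libraries only and Ltf without FosKO replicate 2 or LysM-Cre replicate 1, and 5 further markers, with Ly6g and Elane, were below the filter. Of the monocyte markers, Ly6c2 (0.95) and Plac8 (0.57) were higher and Ccr2 (-0.42) was lower, the last not called without FosKO replicate 2 (difference -0.26, adjusted p = 0.094) or LysM-Cre replicate 3 (-0.35, adjusted p = 0.0541). Of 5 tested osteoclast markers, the fusion gene Dcstamp was at -0.92 and Acp5 at -0.27, both called, and Ocstamp (-0.21), Ctsk (0.14) and Atp6v0d2 (0.16) were not. The Acp5 call (adjusted p = 0.0427) was near the threshold and was lost with quantile normalisation (adjusted p = 0.101) and without any one of 4 libraries, LysM-Cre replicates 1 and 3 and FosKO replicates 1 and 3. The endothelial markers summed to 2860 to 3150 in LysM-Cre and to 3390 to 3770 in FosKO. Of these, Kdr, the VEGF receptor gene, was at 1.02 (adjusted p = 1.17e-05), and Pecam1 (-0.09), Cdh5 (0.35) and Vwf (0.12) were not called. The mast cell marker Kit was at -0.53 (adjusted p = 0.0145), and it did not pass when LysM-Cre replicate 3 (adjusted p = 0.0504) or FosKO replicate 2 (0.0719) was left out. The dendritic cell markers summed to 2970 to 3080 and 2360 to 2720, with Ccr7 called at 0.52 and Itgax at -0.27 and 3 others not called. The erythroid and megakaryocyte markers summed to 2080 to 2400 and 1840 to 1910, with Pf4 called at -0.23. The part of such cells in the other results was not tested. In whole cultures, fewer cells of a type and less RNA per cell cannot be told apart.

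Genes that lie near the 2 altered loci were counted apart from the rest. Within 5 Mb of Fos (chr12:85473890-85477273, GENCODE annotation of GRCm38), 36.8% of 87 tested genes were called and 0 were past 2-fold, and within 10 Mb 37.9% of 132 were called, with Dio2 and Syne2 past 2-fold. Within 5 Mb of Lyz2 (chr10:117277331-117282321), 46.2% of 39 tested genes other than Lyz2 were called, with Hmga2 past 2-fold. These shares stand beside the 40.9% over all tested genes.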

How the data were processed

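The table holds 1 log2 value per gene and library, which the authors deposited already normalised, for 24273 genes and 24 libraries (2 genotypes, 4 times, 3 replicates). Per the study's methods, single-end strand-specific reads were mapped and quantified against mm10 RefSeq genes, and the submitters' processing notes name STAR 2.5.2a, RSEM 1.2.31, DESeq2 1.16.1 and GRCm38. The table carries Ensembl identifiers, and its exact normalisation is not given in the sources used here. The values hold no zeros and look like a regularised log, so differences of weakly expressed genes may be understated, and counts could not be recovered. The study's methods give a typical sequencing yield, but the depth of each library is unknown.

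Genes with a linear value of at least 5 in at least 3 libraries were kept. limma 3.58.1 (R 4.3.3) fitted 8 group means over all libraries with an intensity trend, and p-values were adjusted by the Benjamini-Hochberg method over 13901 genes. Calls were made at adjusted p-values below 0.05. The script was tested on simulated data. The difference at 0.5 h minus that at 0 h was tested in the same fit. Gene lists are described by counts and medians only.

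Named genes were called protein-coding genes with the 10 largest rises and falls (mean linear value of at least 50, no overlap), the genes whose difference changed from 0 h, all AP-1 family genes, up to 4 called members of each list, and Fos, Lyz2, Lyz1, Ifnb1, Il10, Tlr4, Map3k8 and Rn18s-rs5. Further list members are named with their values to describe each list and were chosen after their values were seen, and some genes are not reported here. The comparison and the lists were chosen with earlier results of these data known. Whether replicate numbers pair the genotypes at 0.5 h could not be settled, and the main fit used no pairing. Promoter windows came from RefSeq (GRCm38.p6), and figures were drawn with matplotlib 3.10.9. Alternatives tried were other scalings, filters, a pseudocount, fewer groups, replicate blocks, 18S classes and leaving out each library of 0.5 h, and of 0 h for the change from 0 h. Libraries of 1 h and 2 h were not left out singly.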

Additional observations from a re-analysis of the deposited data

Results flagged for a closer look

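For 16 genes the genotype difference at 0.5 h of LPS was not that at 0 h, by limma's test of the difference between the 2 times. The value given for each is the difference at 0.5 h minus that at 0 h. It was lower at 0.5 h for Fos (-2.26), Nr4a1 (-1.15), Csf2 (-1.08), Kdm6b (-0.92), Errfi1 (-0.91), Dusp5 (-0.87), Gm16184 (-0.85), Egr3 (-0.72), Tnfaip3 (-0.52), Hspa1a (-0.50), Ifrd1 (-0.39), Pvr (-0.36), Dusp1 (-0.33) and Nfkbia (-0.31), and higher for Txnip (0.43) and Ifnb1 (1.59). For Ifrd1, Tnfaip3 and Nfkbia the FosKO libraries began higher at 0 h, by 0.51, 0.38 and 0.28. For Txnip, a gene that falls with LPS, the fall was 1.08 in LysM-Cre and 0.65 in FosKO. With 3 libraries in a group, no formal outlier test was run on single genes, and the standing of FosKO replicate 3 is given in the report.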

How the results depend on the processing

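Under every alternative the number of called genes stayed within 1.5 times of 5689, and that of genes past 2-fold within 1.5 times of 300. Leaving out single libraries of 0.5 h gave 4617 to 5401 called genes and 230 to 347 past 2-fold, with both lowest values without FosKO replicate 3. The number of genes whose difference changed from 0 h, 16 in the report, was less stable: 26 with quantile normalisation, 6 when only the groups compared were fitted, 9 with high 18S libraries only, and 9 to 24 when single libraries were left out. The causes were not tested. Of 156 named genes, 144 were called, 130 were called under every alternative and 0 reversed. Quantile normalisation took the share of called genes that were higher from 51.9% to 45.6%, and median centring to 56.8%. With the replicate number as a block, 5886 genes were called and 301 were past 2-fold, and with a block within each time 5477 and 301. For the change from 0 h the block gave 19 genes and the block within each time 11, without Csf2, Nfkbia, Nr4a1, Dusp1, Txnip and Gm16184. Deviations of same-numbered libraries of the 2 genotypes correlated at -0.463, 0.314 and -0.332. The highest correlation, 0.627, was between FosKO replicate 1 and LysM-Cre replicate 3, both of low 18S content. Deviations from a group mean are tied to each other, so whether the numbers pair the libraries could not be settled. Between 0 h and 0.5 h, same-numbered FosKO libraries correlated at 0.19, 0.13 and 0.27 and LysM-Cre libraries at 0.13, 0.013 and 0.048. A replicate block within each genotype, chosen after seeing the data, gave 25 genes whose difference changed, and Gm16184 was no longer among them. The unknown depth of each library limits what can be said of weakly expressed genes.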

Other observations

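Rpl29, a ribosomal protein gene with many processed copies in the genome, was at 10.63, 10.49 and 10.26 in LysM-Cre and at 12.05, 12.09 and 12.09 in FosKO. The FosKO libraries were all higher, by 1.62 at 0.5 h and by 1.42 at 0 h. It was chosen after its values were seen, and the split of its reads with its copies is uncertain. In all, 32 tested genes shared all their values with some other gene.

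Of the 207 genes at least 2-fold higher, 38 were in the interferon, GTPase or class I lists and 76 were in any list, so most of them were in no list used here.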
